A study of Homo sapiens and Mus musculus with 4 samples.

Results

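The lymphocyte cytokine genes described here are interferon gamma, tumour necrosis factor, lymphotoxin alpha and beta, interleukins 10, 16 and 32, transforming growth factor beta 1, GM-CSF and oncostatin M. The members were chosen by gene symbol from a list of secreted lymphocyte factors: IFNG, TNF, LTA, LTB, IL10, IL16, IL32, TGFB1, CSF2 and OSM in human, and the mouse genes of the same symbol. The table held 10 human and 9 mouse members, because IL32 has no mouse gene, so that 19 of its 60736 genes were members. The rule itself uses no measured value.

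Messenger RNA was measured by bulk sequencing in 4 established lymphocyte lines, with 1 library each and no replicates. The libraries served as references in a benchmark of single-cell methods. The human lines were both derived from T-cell leukaemias, Jurkat of CD4+ and TALL104 of CD8+ type per the study. The mouse lines were EL4, from a T-cell lymphoma described as CD4+, and IVA12, a B-lineage hybridoma. Jurkat and EL4 were grown in RPMI, IVA12 in DMEM, and TALL104 in IMDM with added interleukin-2, and no stimulation of the cells is described. Medium, added interleukin-2 and line cannot be told apart in this design. Each line is a tumour line or a hybridoma, and stands for its own culture rather than for a lymphocyte subset.

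Cytokines are small secreted or membrane-bound proteins through which lymphocytes act on other cells. Resting T cells hold most cytokine genes at low levels. Signals from the antigen receptor raise their transcription through NFAT, NF-kappa-B and AP-1 factors, and AU-rich elements in many of the messengers shorten their life. Others, such as TGFB1 and IL16, are made as precursors that are released in active form by proteolysis.

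The depth recovered from the table ranged from 25286728 reads (IVA12) to 34783047 reads (Jurkat). Values are FPKM, that is, fragments divided by the length of the gene and the depth of the library, and intervals are exact 95% Poisson intervals of the recovered reads. They cover counting error only, since sequenced reads are not independent molecules and no culture was repeated. No p-value is therefore given. The 8 T-cell markers (CD3D, CD3E, CD3G, CD247, CD2, CD5, LCK, ZAP70) all reached 1 FPKM in Jurkat, TALL104 and EL4, as the labels of these lines call for, against 2 of 8 in IVA12. The lines described as CD4+ were, however, not clearly above 1 FPKM for CD4. Cd4 was at 0.208 FPKM in EL4. CD4 was at 0.985 FPKM in Jurkat, with an interval of 0.837 to 1.15 that includes 1, against 0.0308 FPKM in TALL104. In IVA12 4 of 8 B-lineage markers reached 1 FPKM, with Jchain at 1290 FPKM and Sdc1 at 60.2 FPKM, while Pax5 had 0.156 FPKM. In TALL104 4 of 5 NK-cell markers reached 1 FPKM, with a summed level of 651 FPKM against 0.254 in Jurkat. None of the 5 stromal markers reached 1 FPKM in any line. Of 9 myeloid markers, 2 reached 1 FPKM in TALL104, 1 in Jurkat, 2 in EL4 and 1 in IVA12, and CSF1R was listed at 0 in each line.

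The human comparison asked which cytokine messengers differed between Jurkat and TALL104. TALL104 had the higher FPKM for 8 of the 10 genes, led by LTB, TNF, IL32 and IL16. FPKM is a share of the library, so that these values do not compare messenger per cell. The study describes TALL104 cells as smaller than those of the other lines and proposes that they hold less messenger RNA. OSM and IL10 were low in both lines, and no member was called higher in Jurkat. A gene was called different when its FPKM + 1 differed by more than 1.5-fold. By the same rule, 11.4% of all 32738 human genes were higher in TALL104 and 13.8% were higher in Jurkat. Among the 12214 genes with at least 1 FPKM in either line the shares were 28.4% and 34.2%. Of the 7 members at that level, 7 were higher in TALL104 and 0 in Jurkat. The count for TALL104 thus lay above its share on either set of genes. The median log2 ratio of FPKM + 1, Jurkat over TALL104, was -2.04 over the members and 0 over all human genes. The 5 NK-cell markers were also all higher in TALL104, and their part in the cytokine difference was not tested.

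The mouse comparison asked the same of the T-cell lymphoma and the B-lineage hybridoma. Here the members were split: Tnf and Tgfb1 were higher in EL4, and Il10, Ltb, Osm and Il16 were higher in IVA12. The other 3 genes, Ifng, Csf2 and Lta, stayed under the 1.5-fold line. Of all 27998 mouse genes, 9.75% were higher in EL4 and 11.2% in IVA12, and of the 10801 genes with at least 1 FPKM in either line 23.8% and 26.5%. Of the 6 members at that level, 2 were higher in EL4 and 4 in IVA12. The count for EL4 lay near its share of expressed genes. That for IVA12 lay above its share, though on few genes, and the line with more called members changed with the pseudocount. The median log2 ratio, EL4 over IVA12, was 0.30 over the members and 0 over all mouse genes. In both species, fewer cells that make a messenger and less messenger per cell cannot be told apart in bulk RNA.

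**Figure D1:**
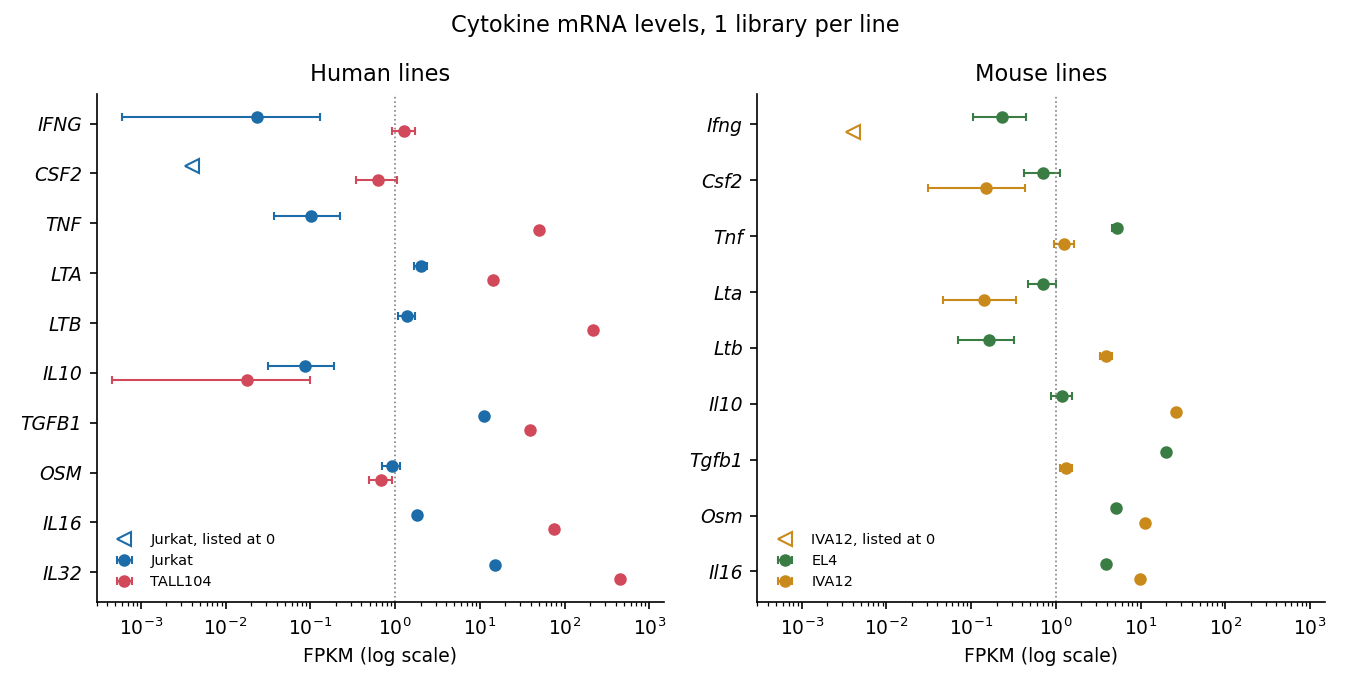
FPKM of each cytokine gene on a log axis, human lines on the left and mouse lines on the right, with 1 library per line. Bars are exact 95% Poisson intervals of the recovered reads, open triangles stand for a gene listed at 0, and the dotted line marks 1 FPKM. The TALL104 points of TNF, LTB, IL16 and IL32 lie far to the right of the Jurkat points, while the mouse genes differ in both directions.

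The TNF family members form 1 gene cluster. In human (hg19), LTA (ENSG00000226979, chromosome 6, 31539831 to 31542101, plus strand), TNF (ENSG00000232810, 31543342 to 31546113, plus strand) and LTB (ENSG00000227507, 31548302 to 31550299, minus strand) are separated by 1240 and 2188 bases. In mouse (mm10), Lta (ENSMUSG00000024402, chromosome 17, 35203165 to 35205351, minus strand), Tnf (ENSMUSG00000024401, 35199381 to 35202007, minus strand) and Ltb (ENSMUSG00000024399, 35194439 to 35196320, plus strand) are separated by 1157 and 3060 bases. TNF and lymphotoxin alpha homotrimers bind the TNF receptors. Lymphotoxin beta anchors lymphotoxin alpha at the cell surface in a heterotrimer that binds the lymphotoxin beta receptor, and is known for its part in the build-up of lymphoid organs.

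The stretch of 250 bases before the RefSeq start of TNF is printed because TNF had the widest ratio of FPKM among the members with reads in both human lines. RefSeq gives the sequence on GRCh38.p14, and it was placed in hg19 by an exact match at chr6:31543092-31543341, plus strand. It lies outside the annotated exons of TNF.
TNF upstream: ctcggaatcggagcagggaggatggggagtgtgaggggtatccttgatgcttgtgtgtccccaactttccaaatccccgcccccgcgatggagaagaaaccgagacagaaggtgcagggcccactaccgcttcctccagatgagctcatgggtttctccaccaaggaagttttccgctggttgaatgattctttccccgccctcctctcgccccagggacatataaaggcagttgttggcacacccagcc

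Of the 10 human members, 9 had at least 1 start in RefSeq's promoter table, with 15 windows in all. Each window was searched on both strands for the NF-kappa-B motif GGGNNNTTCC, the STAT motif TTCNNNGAA, the AP-1 motif TGANTCA, the RUNX motif TGTGGT and the T-box motif GGTGTGA. Among 35116 such windows of all genes, 5.67% held the NF-kappa-B letters, 6.57% the STAT letters, 6.57% the AP-1 letters, 10.98% the RUNX letters and 2.76% the T-box letters. These shares are per window. Members are counted once each below although some have more than 1 window, so that their counts cannot be set against the shares. The NF-kappa-B letters were found for 3 members, LTA, LTB and IL32, which are printed with 10 bases on either side and the match in capitals, read along the strand of the gene.
LTA: tctaagccctGGGGGCTTCCccgggcccca
LTB: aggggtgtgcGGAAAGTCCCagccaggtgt
IL32: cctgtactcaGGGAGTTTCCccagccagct

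The stretches lie at chr6:31539952-31539981 for LTA, chr6:31550269-31550298 for LTB and chr16:3115295-3115324 for IL32 in hg19. The stretch of LTA lies within an annotated exon of a longer transcript, and the stretches of LTB and IL32 lie partly in one. The match of LTB is on the opposite strand. The STAT letters were found for CSF2, IFNG, LTA and LTB, the RUNX letters for CSF2, IL16 and LTA, the AP-1 letters for IL10, and the T-box letters for IL32 and LTA. TNF and TGFB1 held none of the 5 in these exact letters. A match of letters is a description of the sequence and not a binding site. A window without a match may still hold sites that differ from the letters searched.

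TNF had 0.103 FPKM in Jurkat, from 6 reads (interval 0.0378 to 0.224), and 49.5 FPKM in TALL104, from 2352 reads (47.5 to 51.5). The intervals lay far apart, and the FPKM was 481-fold higher in TALL104 (counting interval 221 to 1312). In TALL104 it was the 654th highest of the human genes, and in Jurkat the 14650th. Tnf had 5.20 FPKM in EL4 (274 reads) and 1.25 FPKM in IVA12 (52 reads), 4.14-fold higher in EL4 (3.07 to 5.69). TNF was therefore above 1 FPKM in each line except Jurkat.

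LTA had 2.02 FPKM in Jurkat (122 reads) and 14.5 FPKM in TALL104 (713 reads), 7.17-fold higher in TALL104 (5.91 to 8.76). It was the third highest member in Jurkat, where its interval overlapped that of IL16. Lta was low in both mouse lines, at 0.697 FPKM in EL4 (31 reads) and 0.143 FPKM in IVA12 (5 reads). The ratio of these FPKM was 4.88 in favour of EL4 (1.88 to 16.1), but on FPKM + 1 it was 1.48, just under the line.

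LTB had 1.37 FPKM in Jurkat (73 reads) and 217 FPKM in TALL104 (9436 reads). It was 159-fold higher in TALL104 (126 to 203), where it was the 90th highest human gene. Ltb had 0.164 FPKM in EL4 (8 reads) and 3.91 FPKM in IVA12 (150 reads), 23.8-fold higher in IVA12 (11.8 to 56.2). LTB thus stood higher in TALL104 in human and in the B-lineage line in mouse.

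The proportions within the cluster differed from line to line. LTB over LTA, as a ratio of FPKM within a library, was 0.677 in Jurkat (0.4995 to 0.912) and 0.235 in EL4 (0.0935 to 0.524). It was 14.98 in TALL104 (13.9 to 16.2) and 27.4 in IVA12 (11.5 to 85.5). In these counts, the subunit that anchors lymphotoxin at the membrane was below its partner in Jurkat and EL4 and above it in TALL104 and IVA12. TNF over LTB was 0.0753 in Jurkat (0.0268 to 0.172), 0.228 in TALL104 (0.218 to 0.239) and 0.321 in IVA12 (0.229 to 0.442). In EL4 it was 31.7 (15.9 to 74.1), the only line with more TNF than LTB.

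IFNG (ENSG00000111537, chromosome 12, 68548548 to 68553520, minus strand) encodes interferon gamma, which activates macrophages and antigen presentation. It had 0.0236 FPKM in Jurkat, from 1 read, and 1.27 FPKM in TALL104, from 44 reads (interval 0.926 to 1.71). The ratio was 54.0 with an interval of 9.20 to 2180, as wide as the read in Jurkat makes it. Its antisense neighbour IFNG-AS1, whose span with introns covers the whole gene on the other strand, was listed at 0 in Jurkat but reached 8.40 FPKM in TALL104. The kit used marks the strand, but whether the counting used it is not stated, so that reads of the 2 genes may not have been told apart. TNF was 38.8-fold above IFNG in TALL104 (28.8 to 53.6).

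The 250 bases before the start of IFNG hold 1 match to the STAT letters, in capitals, 242 to 234 bases before the start. They are shown because interferon gamma, a factor of cytotoxic T, helper T and NK cells, passed 1 FPKM in TALL104 alone. The window is chr12:68553521-68553770 in hg19, minus strand, from RefSeq as above.
IFNG upstream: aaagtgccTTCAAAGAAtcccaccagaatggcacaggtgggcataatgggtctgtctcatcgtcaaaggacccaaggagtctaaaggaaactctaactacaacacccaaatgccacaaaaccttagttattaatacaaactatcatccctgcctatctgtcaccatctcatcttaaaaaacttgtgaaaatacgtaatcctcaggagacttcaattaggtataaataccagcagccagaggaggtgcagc

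Ifng (ENSMUSG00000055170, chromosome 10, 118441046 to 118445892, plus strand) had 0.232 FPKM in EL4, from 9 reads, and was listed at 0 in IVA12. Against the 3 reads that a count of 0 allows, it was at least 2.36-fold higher in EL4. IFNG therefore passed 1 FPKM only in TALL104 among the 4 libraries, and the lower end of its interval there was under 1.

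CSF2 (ENSG00000164400, chromosome 5, 131409482 to 131411863, plus strand) encodes GM-CSF, which drives myeloid growth. It was listed at 0 in Jurkat but reached 0.631 FPKM in TALL104, from 14 reads, at least 5.73-fold higher against the same floor. Csf2 (ENSMUSG00000018916, chromosome 11, 54247271 to 54249667, minus strand) had 0.6999 FPKM in EL4 (18 reads) and 0.148 FPKM in IVA12 (3 reads). The ratio was 4.72 (1.38 to 25.0), and 1.48 on FPKM + 1. CSF2 reached 1 FPKM in none of the 4 libraries, so that its call in human rests on few reads.

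IL32 (ENSG00000008517, chromosome 16, 3115298 to 3132193, plus strand) encodes interleukin 32, an inflammatory factor of T and NK cells. It was the highest member in both human lines, with 15.3 FPKM in Jurkat (1555 reads) and 449 FPKM in TALL104 (37221 reads). It was 29.4-fold higher in TALL104 (27.9 to 30.9), where it was the 34th highest gene. In Jurkat it was the 3318th. A long non-coding gene on the opposite strand, ENSG00000262370, overlaps IL32 over 5282 bases of gene span, introns included. It moved with IL32, from 0.108 FPKM in Jurkat to 49.3 FPKM in TALL104. Whether these reads were told apart by strand is not stated.

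IL16 (ENSG00000172349, chromosome 15, 81451916 to 81606399, plus strand) encodes a precursor that is cleaved into interleukin 16, a chemoattractant that binds CD4. It had 1.82 FPKM in Jurkat (687 reads) and 74.2 FPKM in TALL104 (22868 reads), 40.8-fold higher in TALL104 (37.9 to 44.1). IL16 was the third highest member in TALL104 and the 375th highest human gene. Il16 (ENSMUSG00000001741, chromosome 7, 83642825 to 83745726, minus strand) had 3.85 FPKM in EL4 (974 reads) and 9.93 FPKM in IVA12 (1974 reads), 2.58-fold higher in IVA12 (2.39 to 2.79). The opposite-strand neighbour Stard5 overlaps Il16 over 10303 bases of gene span, introns included, and had 2.33 FPKM in EL4 against 32.7 in IVA12. Its part in the level of Il16 was not tested. In human, STARD5 had 0.680 FPKM in Jurkat and 0.462 FPKM in TALL104, where IL16 was far higher.

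IL10 (ENSG00000136634, chromosome 1, 206940947 to 206947886, minus strand) encodes interleukin 10, which dampens inflammation. It was near 0 in both human lines, at 0.0872 FPKM in Jurkat (6 reads) and 0.0178 FPKM in TALL104 (1 read). The ratio in favour of Jurkat was 4.89, with an interval of 0.593 to 225 that includes 1. In mouse the picture was different. Il10 (ENSMUSG00000016529, chromosome 1, 131019845 to 131024974, plus strand) had 1.19 FPKM in EL4 (50 reads) and 25.9 FPKM in IVA12 (858 reads), 21.8-fold higher in IVA12 (16.4 to 29.6). It was the highest member in IVA12, with 48.2% of the summed FPKM of the 9 genes, and the 2304th highest mouse gene. The myeloid list, whose cells also make interleukin 10, had a summed level of 4.08 FPKM in EL4 against 22.8 in IVA12. Of this, 22.5 FPKM was Cd68, while Csf1r, Fcgr1, S100a8 and S100a9 were listed at 0 in both lines.

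TGFB1 (ENSG00000105329, chromosome 19, 41807492 to 41859827, minus strand) encodes transforming growth factor beta 1, which restrains T cells and is secreted in a latent complex. It had 11.3 FPKM in Jurkat (1275 reads) and 39.4 FPKM in TALL104 (3614 reads), 3.48-fold higher in TALL104 (3.26 to 3.71). Protein-coding neighbours on the other strand overlap the annotated gene, among them CCDC97 with 9.98 FPKM in Jurkat and 12.9 FPKM in TALL104. Tgfb1 (ENSMUSG00000002603, chromosome 7, 25687002 to 25705077, plus strand) had 20.1 FPKM in EL4 (3252 reads) and 1.32 FPKM in IVA12 (168 reads), 15.2-fold higher in EL4 (13.0 to 17.9). It was the highest member in EL4, with 53.8% of the summed FPKM. Of the genes measured in both species, TGFB1 alone was above 10 FPKM in Jurkat, TALL104 and EL4, and its lowest level was in IVA12.

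TGFB1 and IL10, both known as suppressive factors, were placed in opposite order in the mouse lines. The ratio of FPKM of Tgfb1 over Il10 was 16.9 in EL4 (12.8 to 22.8) and 0.0509 in IVA12 (0.0429 to 0.0601). In Jurkat TGFB1 was 130-fold above IL10 (59.5 to 354). In TALL104 the ratio was 2208, with an interval of 396 to 87223 because IL10 had 1 read.

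OSM (ENSG00000099985, chromosome 22, 30658818 to 30662840, minus strand) encodes oncostatin M, a factor of the interleukin 6 family that acts through gp130. It had 0.911 FPKM in Jurkat (67 reads, interval 0.706 to 1.16) and 0.684 FPKM in TALL104 (41 reads, interval 0.491 to 0.928). The intervals overlapped, and the ratio of 1.33 had an interval of 0.890 to 2.01. Osm (ENSMUSG00000058755, chromosome 11, 4236420 to 4241026, plus strand) had 5.16 FPKM in EL4 (377 reads) and 11.1 FPKM in IVA12 (639 reads), 2.15-fold higher in IVA12 (1.89 to 2.45).

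**Figure D2:**
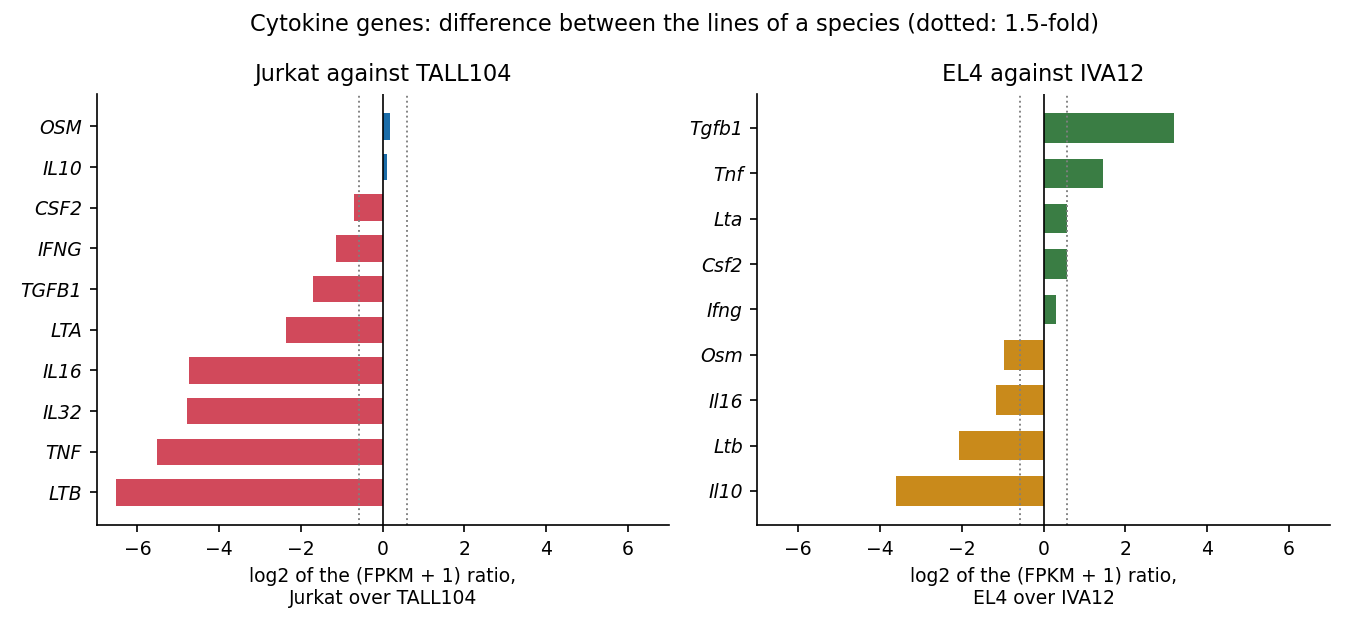
Log2 ratio of FPKM + 1 for each cytokine gene, Jurkat over TALL104 on the left and EL4 over IVA12 on the right, with dotted lines at 1.5-fold. Bars to the left stand for genes higher in TALL104 or IVA12. LTB is lowest in the human pair at -6.52, and the mouse pair runs from Il10 at -3.62 to Tgfb1 at 3.18.

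The members took different places in each library. At least 1 FPKM was reached by 7 of 10 members in TALL104, 5 of 10 in Jurkat, 6 of 9 in IVA12 and 5 of 9 in EL4. Their summed level was 846 FPKM in TALL104, against 32.9 in Jurkat, 53.7 in IVA12 and 37.3 in EL4. In TALL104 IL32 and LTB held 78.7% of the sum. The order in TALL104 was IL32, LTB, IL16, TNF, TGFB1, LTA, IFNG, OSM, CSF2 and IL10, and the intervals of neighbours overlapped only for IFNG with OSM and OSM with CSF2. In Jurkat the order was IL32, TGFB1, LTA, IL16, LTB, OSM, TNF, IL10, IFNG and CSF2. There the intervals of neighbours overlapped from LTA to OSM and from TNF to CSF2.

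In EL4 the order was Tgfb1, Tnf, Osm, Il16, Il10, Csf2, Lta, Ifng and Ltb. Tnf could not be separated from Osm there, nor Il10 from Csf2, Csf2 from Lta and Ifng from Ltb. In IVA12 it was Il10, Osm, Il16, Ltb, Tgfb1, Tnf, Csf2, Lta and Ifng. Osm overlapped Il16 there, Tgfb1 overlapped Tnf, and Csf2, Lta and Ifng overlapped each other in turn. The highest member was thus another gene in the human lines, in EL4 and in IVA12.

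**Figure D3:**
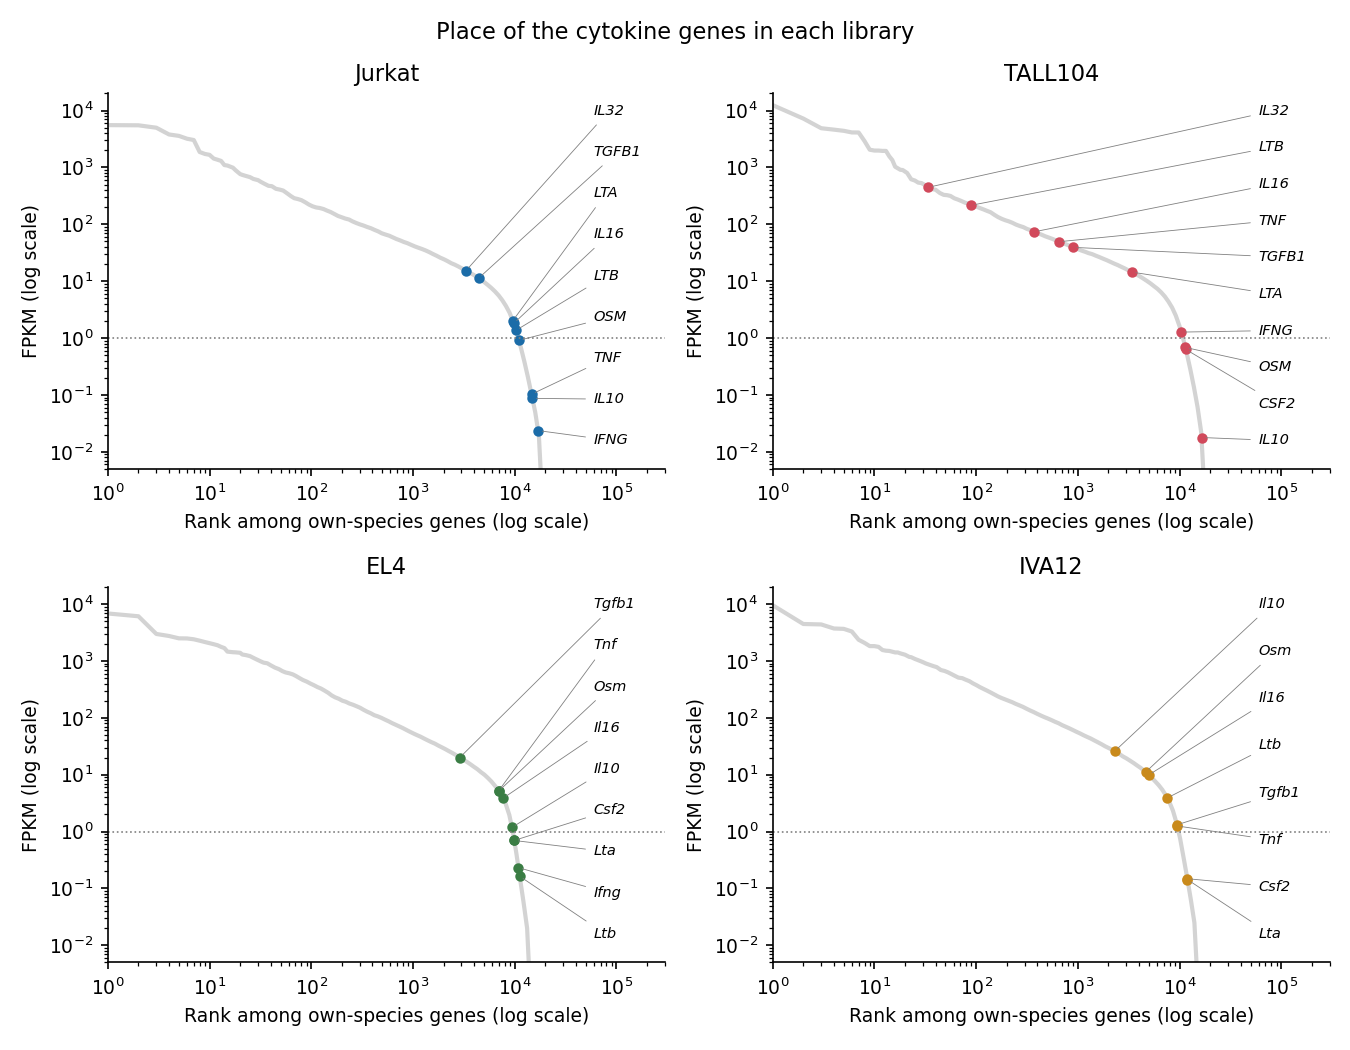
FPKM against rank among the genes of the library's own species, both on log axes, with 1 panel for each library. Grey lines are all genes above 0 and labelled points the cytokine genes above 0. In TALL104 the points of IL32 and LTB lie within the highest 100 genes, while in the other libraries no cytokine gene ranks above 2304th.

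Receptor chains of 9 of the members were listed with them, 15 genes in each species. Of the human chains, 9 of 15 were higher in TALL104 and 2 in Jurkat, and of the mouse chains 3 were higher in each line. Among all genes with at least 1 FPKM in either line, 28.4% were higher in TALL104 and 34.2% in Jurkat. In mouse the shares were 23.8% in EL4 and 26.5% in IVA12. At that level there were 10 chains in each species. Of these, 9 were higher in TALL104, 1 in Jurkat and 3 in each mouse line, so that the mouse counts lay near the shares. Interleukin 10's receptor showed the widest human difference on FPKM + 1, with IL10RA at 0.624 FPKM in Jurkat and 69.8 FPKM in TALL104. IL10RB, its shared partner, had 7.68 and 20.4 FPKM. TALL104 therefore carried messenger of both chains with almost none of the ligand. In IVA12, where Il10 was highest, Il10ra had 0.271 FPKM and Il10rb 5.24 FPKM.

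For interferon gamma the order was reversed between its chains. IFNGR1, the ligand-binding chain, had 16.4 FPKM in Jurkat and 77.2 FPKM in TALL104. IFNGR2, which signalling also requires, had 11.9 FPKM in Jurkat and 0.310 FPKM in TALL104, from 26 reads. In mouse, Ifngr1 had 78.9 FPKM in EL4 against 7.49 in IVA12, and Ifngr2 had 6.27 and 3.04 FPKM. TALL104 was the only library under 1 FPKM for either chain, and the only one over 1 FPKM for the ligand.

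TNFRSF1B, the TNF receptor typical of lymphocytes, had 0.145 FPKM in Jurkat and 34.7 FPKM in TALL104. TNFRSF1A, the widely expressed TNF receptor, had 11.3 and 19.7 FPKM. Tnfrsf1b had 0.611 FPKM in EL4 against 7.996 in IVA12. The receptor of the lymphotoxin heterotrimer, LTBR, stayed under 0.3 FPKM in all 4 lines, with 1 read each in Jurkat, TALL104 and EL4 and 17 reads in IVA12. LTB and its receptor were thus in no library both above 1 FPKM.

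The TGF-beta receptor chains TGFBR1 and TGFBR2 had 7.41 and 8.37 FPKM in Jurkat and 42.1 and 38.2 FPKM in TALL104. In mouse Tgfbr1 had 6.86 FPKM in EL4 against 10.6 in IVA12. Tgfbr2 was at 4.52 FPKM in EL4 and at 0 in IVA12, the line with the lowest Tgfb1. CSF2RB, the beta chain that GM-CSF shares with other cytokines, had 0.0170 FPKM in Jurkat and 24.5 FPKM in TALL104, and Csf2rb 0.209 FPKM in EL4 against 26.3 in IVA12. The alpha chain, specific for GM-CSF, was listed at 0 in Jurkat, EL4 and IVA12 and had 0.0368 FPKM in TALL104.

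IL6ST, which encodes gp130, was above 1 FPKM in each line, from 3.86 FPKM in Jurkat to 16.2 FPKM in EL4. OSMR, its partner for oncostatin M, had at most 0.0295 FPKM in the human lines and was listed at 0 in the mouse lines. Lifr, which pairs with gp130 too, was listed at 0 in EL4 but reached 6.53 FPKM in IVA12, with human LIFR at most 0.0824 FPKM. CD4, the receptor of interleukin 16, was listed below 1 FPKM in all 4 lines, though its interval in Jurkat reached 1.15 FPKM. All receptor chains listed for a member and the member itself reached 1 FPKM for 1 cytokine in Jurkat (TGFB1), 2 in TALL104 (TNF and TGFB1), 1 in EL4 (Tgfb1) and 1 in IVA12 (Tnf). This count asks for every listed chain, also where the chains belong to separate receptors, so that it leaves out pairs with 1 receptor. LTA was above 1 FPKM beside TNFRSF1A at 11.3 FPKM in Jurkat, and Tnf beside Tnfrsf1a at 3.66 FPKM in EL4. In TALL104 LTA stood beside TNFRSF1A at 19.7 and TNFRSF1B at 34.7 FPKM.

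**Figure D4:**
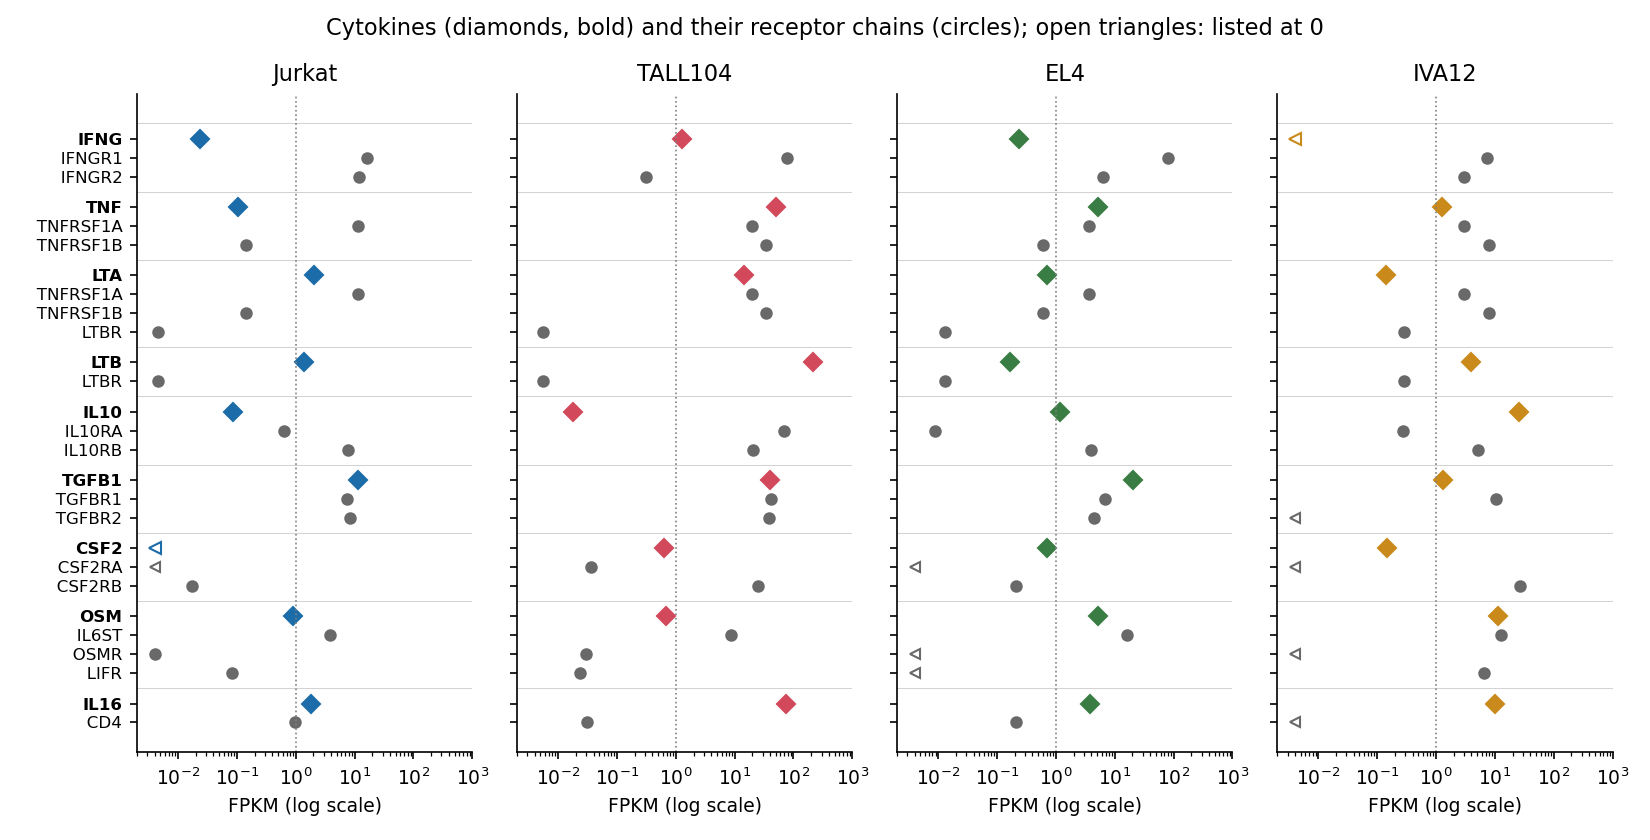
FPKM on a log axis of 9 cytokines (coloured diamonds) and of their receptor chains (grey circles below each) in the 4 libraries, named by the human symbol. Open triangles are genes listed at 0 and the dotted line marks 1 FPKM. LTBR lies left of 1 FPKM in each panel, and IFNGR2 lies left of it in TALL104 alone.

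Genes that process or store these cytokines were compared as 9 genes in each species. In human, 2 were higher in Jurkat and 3 in TALL104. They were among the 7 of these genes with at least 1 FPKM in either line. The shares of expressed genes were 34.2% and 28.4%. FURIN, the convertase that cleaves the TGFB1 precursor, had 6.53 FPKM in Jurkat and 82.8 FPKM in TALL104. RHBDF2, which helps the TNF-releasing protease ADAM17 to mature, had 1.10 and 8.83 FPKM, while ADAM17 itself had 10.2 and 8.50 FPKM. LTBP1, a latent TGF-beta binding protein, was higher in Jurkat at 2.43 FPKM against 0.0578 FPKM.

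In mouse, 1 of the 9 was higher in EL4 and 3 in IVA12. They were among the 7 of these genes with at least 1 FPKM in either line. The shares of expressed genes were 23.8% and 26.5%. Ltbp1 had 0.00594 FPKM in EL4 against 20.1 in IVA12, against the direction of Tgfb1. Ltbp3, another latent TGF-beta binding protein, was listed at 0 in EL4 but reached 1.19 FPKM in IVA12. Human LTBP3 had 0.684 FPKM in Jurkat and 1.81 FPKM in TALL104, the same direction as TGFB1. LTBP1 thus stood in the order opposite to TGFB1 in both species, and LTBP3 in mouse but not in human.

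Of 10 genes that act on the decay or stability of cytokine messengers, 3 were higher in Jurkat and 5 in TALL104. They were among the 9 with at least 1 FPKM in either line. The shares of expressed human genes were 34.2% and 28.4%. ZFP36, which encodes tristetraprolin and promotes decay of TNF messenger, had 4.08 FPKM in Jurkat and 34.5 FPKM in TALL104. Its relative ZFP36L1 had 3.06 and 22.0 FPKM, and ZFP36L2 had 25.6 and 64.0 FPKM. ZC3H12A, which encodes the endonuclease regnase-1, had 2.05 and 12.6 FPKM. These decay factors stood higher in the line with more TNF. HNRNPD, which binds AU-rich elements, went the other way with 118 FPKM in Jurkat and 33.1 FPKM in TALL104. So did KHSRP, which binds them too, with 63.5 and 26.0 FPKM, and ELAVL1 with 33.0 and 12.8 FPKM.

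In mouse, 3 of the 10 were higher in EL4 and 3 in IVA12, near the 23.8% and 26.5% of expressed genes. Zfp36 had 1.37 FPKM in EL4 against 19.5 in IVA12, and Zfp36l2 had 42.5 and 13.6 FPKM. Zc3h12d, a relative of regnase-1, was listed at 0 in EL4 but reached 1.57 FPKM in IVA12. Hnrnpd had 76.1 FPKM in EL4 against 36.3 in IVA12, while Khsrp, another AU-rich element binding protein, had 57.3 and 69.7 FPKM. In mouse, Zfp36 was therefore higher in the line with less Tnf.

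Among 13 transcription factors that act on these genes, none was higher in Jurkat and 10 were higher in TALL104, with a median log2 ratio of -1.27. The called factors were among the 12 with at least 1 FPKM in either line. Of expressed human genes, 34.2% were higher in Jurkat and 28.4% in TALL104. TBX21, the T-bet gene that drives IFNG, had 0.330 FPKM in Jurkat and 23.7 FPKM in TALL104. STAT4, which relays interleukin 12, had 2.45 and 66.6 FPKM. MAF, known as an activator of IL10, had 0.0288 and 25.2 FPKM, although IL10 was at 1 read in TALL104. NFATC2, which binds cytokine promoters on calcium signals, had 6.31 and 30.2 FPKM.

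In mouse, 3 of the 13 factors were higher in EL4 and 3 in IVA12. Of the 8 factors with at least 1 FPKM in either line, 2 were higher in EL4 and 3 in IVA12. The shares of expressed genes were 23.8% and 26.5%. Prdm1, the plasma-cell factor Blimp-1, had 0.300 FPKM in EL4 against 18.9 in IVA12. Runx3, a factor of cytotoxic T cells, had 14.1 and 1.86 FPKM. Junb, an AP-1 subunit, had 10.1 and 27.9 FPKM, and Rela, an NF-kappa-B subunit, had 18.8 and 20.8 FPKM. Maf was at 0.325 FPKM in EL4 and listed at 0 in IVA12, the line with 25.9 FPKM of Il10.

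Of 10 genes known to respond to these cytokines or to interleukin-2, none was higher in Jurkat and 8 were higher in TALL104, beside 34.2% and 28.4% of expressed human genes. CISH, a feedback gene of STAT5 signalling, had 0.675 FPKM in Jurkat and 35.3 FPKM in TALL104, which was grown with interleukin-2. GBP2, an interferon-induced gene, had 0.0596 and 21.9 FPKM, and SMAD7, an inhibitor induced by TGF-beta, had 0.288 and 11.3 FPKM. NFKBIA, the NF-kappa-B feedback inhibitor, had 8.55 and 23.9 FPKM. In mouse, 2 of the 10 were higher in EL4 and 6 in IVA12. They were among the 8 with at least 1 FPKM in either line. The shares of expressed genes were 23.8% and 26.5%. Socs3, a feedback gene of STAT3 signalling, had 0.161 FPKM in EL4 against 12.4 in IVA12. Bcl3 had 0.0628 and 9.91 FPKM, Skil 1.31 and 7.69 FPKM, Nfkbia 12.2 and 36.2 FPKM, and Irf1 6.49 and 19.4 FPKM.

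Most other cytokine genes were barely read. Of 46 further human genes, 9 reached 1 FPKM in Jurkat and 15 in TALL104, 2 were higher in Jurkat and 12 in TALL104. Over all human genes, expressed or not, the shares were 13.8% and 11.4%. Among them TNFSF14 (LIGHT, a second ligand of the lymphotoxin beta receptor) had 0.0894 FPKM in Jurkat and 106 FPKM in TALL104. FASLG, the death ligand of cytotoxic cells, had 0.122 and 35.6 FPKM, and TNFSF8 had 1.13 and 26.3 FPKM. MIF was higher in Jurkat at 170 against 36.0 FPKM. CD40LG, the helper ligand of T cells, had 36.7 FPKM in Jurkat and 106 FPKM in TALL104. The ligands of the TNF superfamily that were called in TALL104 thus included relatives of LTB and TNF outside their gene cluster.

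Of 45 further mouse genes, 10 reached 1 FPKM in EL4 and 3 in IVA12, 8 were higher in EL4 and 3 in IVA12, beside 9.75% and 11.2% of all mouse genes. Il17f and Il17a, the interleukin 17 genes of helper T cells, were at 9.66 and 4.73 FPKM in EL4, and both at 0 in IVA12. Tnfsf11, which encodes RANK ligand, was at 5.34 FPKM in EL4 and at 0 in IVA12. Mif had 416 FPKM in EL4 against 319 in IVA12, under the 1.5-fold line.

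The median log2 ratios of FPKM + 1 summarise these lists. In the human pair, Jurkat over TALL104, they were -0.99 for the receptors, 0.02 for processing, -0.74 for messenger decay, -1.27 for the regulators, -1.62 for the response genes and 0 for the further cytokines. In the mouse pair, EL4 over IVA12, they were 0 for the receptors, 0 for processing, -0.15 for messenger decay, 0 for the regulators, -1.47 for the response genes and 0.02 for the further cytokines. Of the 6 lists, the response genes lay furthest from 0 in both pairs.

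**Figure D5:**
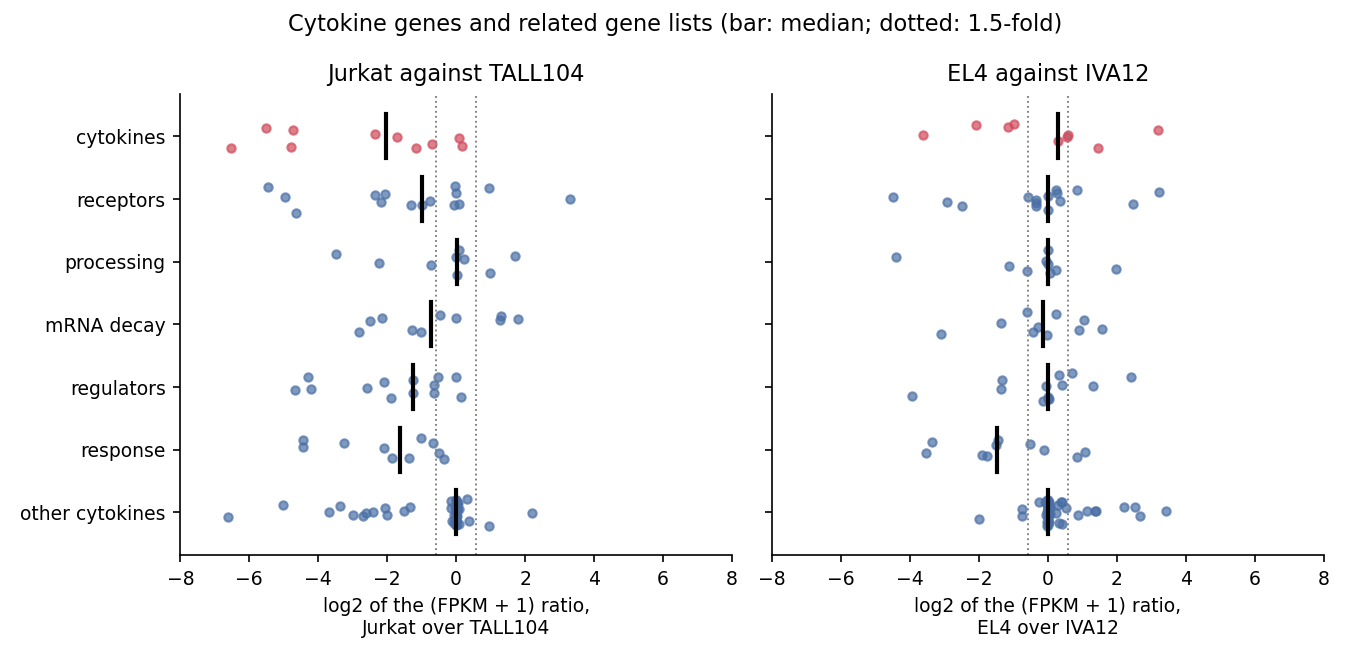
Log2 ratio of FPKM + 1 for each gene of the cytokine set (red) and of 6 related lists (blue), human lines on the left and mouse lines on the right. Black bars are list medians and dotted lines mark 1.5-fold. The points of the cytokine, regulator and response lists lie mostly to the left in the human panel, and the other cytokines lie mostly near 0 in both.

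The genes of the other species, aligned together with those of the own species, give the background of the table. In the human libraries 1 of 9 mouse members was above 0 in each, with 1 read. In EL4 4 of 10 human members had reads, 9 in all, and in IVA12 4 of 10, 16 in all. No other-species member had more than 6 reads or 0.0811 FPKM. The highest count was in IVA12, and Jurkat and TALL104 had at most 1 read on a mouse member. The single reads of IFNG in Jurkat and IL10 in TALL104 were no more than this, while TNF and IL10 in Jurkat had 6 reads each.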

How the data were processed

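Messenger RNA of 4 cell lines was sequenced with 1 stranded library each. Per the study's methods and the submitters' processing notes, the authors aligned reads with STAR 2.5.1b to a joined human hg19 and mouse mm10 reference and counted them per gene with featureCounts 1.6.3. The values are FPKM as deposited by the authors. The strand setting, gene lengths and handling of multiply aligned reads are not given in the sources used here.

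Reads were recovered from the steps of the FPKM, at a relative tolerance of 1e-12 over gene lengths up to 300000 bases. For 2 of 10 human and 8 of 9 mouse members this gave exactly the length in the annotation, and the reads of the others may carry a shared factor that was missed. Identifiers were matched to GENCODE human release 44 on GRCh37 and mouse M21 on GRCm38. Overlaps of neighbours were taken between gene starts and ends, introns included, and shared exon bases were not measured. Lines were compared within a species on FPKM + 1, with a call above 1.5-fold, and a gene was detected at 1 FPKM. Ratios of FPKM have conditional exact binomial counting intervals at 95%, and a count of 0 was set to a floor of 3 reads. Count models need replicates and were not used.

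The members, gene lists and thresholds were chosen with earlier results of these data known. Named genes are all members, the 3 genes of each list with the widest log2 ratio in each pair and the 2 with the highest level, the markers, and neighbours that overlap a member. The remaining genes were named after their values were seen. 1 listed gene could not be matched. The calculation was tested on simulated data. Python 3.11.15, NumPy 2.4.6, pandas 2.3.3, SciPy 1.17.1 and matplotlib 3.10.9 were used. Alternatives were other pseudocounts, scalings, thresholds and a filter on low values. Some genes picked by the rule for named genes are not reported here.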

Additional observations from a re-analysis of the deposited data

Results flagged for a closer look

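Human cytokine genes had reads in mouse libraries, outside the comparisons above and over the 3 reads that a count of 0 allows. TGFB1 had 6 reads in IVA12. IL32, which has no mouse gene, had 4 reads in EL4 and 6 reads in IVA12.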

How the results depend on the processing

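No paired analysis was possible because each line has 1 library, and for the same reason no library could be left out. The log2 ratio of no single member changed sign under any alternative run. The line with more called mouse members did change with the pseudocount. It was IVA12 in the main run, with 4 against 2, and EL4 at 0.1 or 0.01 FPKM, with 5 against 4. Of 24 counts of cytokine genes called, 20 stayed within 1.5 times the main count. With a pseudocount of 0.1 or 0.01 FPKM the count higher in EL4 went from 2 to 5 in each case, since Ifng, Csf2 and Lta then passed the line, and the count higher in Jurkat from 0 to 1, which was IL10. Those pseudocounts moved the further cytokines higher in EL4 from 8 to 15 and 19, in IVA12 from 3 to 5 and 11, and in Jurkat from 2 to 6 and 12, and the receptors higher in IVA12 from 3 to 6 and 6. With only genes of at least 1 FPKM in either line, 1 further cytokine was higher in IVA12 and 1 receptor in Jurkat. Detected members depended on the limit. At 0.1 FPKM 9 were detected in EL4, at 5 FPKM 3 in EL4, 3 in IVA12 and 2 in Jurkat, and above 0 FPKM 9 in EL4 and 9 in Jurkat. Scaling by the median ratio, with a log2 factor of 0.11 in human, changed none of the cytokine or list counts by more than 1.5 times. Of 89 log2 ratios of single members, 53 moved by less than their counting error. Depth limits IFNG, CSF2 and IL10 in human and Ifng, Csf2 and Lta in mouse, each with fewer than 50 reads in both lines.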

Other observations

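Among the further cytokines counted above, others with differences between the lines are given here, chosen after their values were seen. TNFSF10, which encodes the death ligand TRAIL, was at 5.97 FPKM in Jurkat against 70.7 in TALL104, and CD70 at 1.44 against 18.4. Growth factors of the same library were CSF1, the macrophage factor, at 0.876 FPKM in Jurkat against 10.6 in TALL104, and LIF, of the interleukin 6 family, at 0.0942 against 3.60. IL23A, a subunit of interleukin 23, was at 2.49 FPKM against 7.79. In EL4, Il12a, a subunit of interleukin 12, was at 3.66 FPKM (200 reads), the type 2 cytokine gene Il5 at 1.72 FPKM (85 reads) and Il33 at 1.84 FPKM (171 reads). In IVA12 these were at 0, 0.0257 and 0.0959 FPKM. Tnfsf10 went the other way, with 1.26 FPKM in EL4 against 8.13 in IVA12.

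IL2 and IL4, cytokine genes known from activated T cells, had few reads in the T-cell lines. IL2 had 2 reads in Jurkat and none in TALL104, and Il2 had 1 read in EL4. IL4 likewise had 2 reads and none, while Il4 had 13 reads in EL4.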
